A study of Mus musculus with 6 samples.

Results

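Lysosomes are made acid by a rotary proton pump, the V-type ATPase, and their protein content is degraded by cathepsins behind a membrane coated with LAMP glycoproteins. The 31 genes described here were all rows of the FPKM table with a symbol that starts with Atp6v or Atp6ap, or reads Cts with one letter or Lamp with a digit, and with a mean of at least 0.5 FPKM over the 6 libraries. They were 18 proton pump genes, 11 cathepsins and 2 LAMPs out of 23314 genes in the table. FPKM counts fragments relative to transcript length and sequencing depth, so levels of different genes can be compared. Wherever 3 values are given for a group, they are libraries 1, 2 and 3 in that order.

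The libraries were made from total RNA of the quadriceps, the large thigh muscle, of mice at 2 months of age. K15SKO mice carried Myogenin-Cre/+ together with K15F/F, the floxed Klf15 alleles, and MyoCre mice carried Myogenin-Cre/+ alone, so both groups expressed Cre from the Myogenin promoter, which is active in differentiating muscle cells; other cells of the tissue keep Klf15. Each group held 3 libraries, while the design text gives n = 4 without saying of what, and any further sample was not analysed here. The labels do not state whether each library is its own animal, and the spread behind a p-value may therefore be technical. Klf15 stood at 2.22, 21.7 and 5.32 FPKM in the K15SKO libraries, against 35.2, 28.4 and 30.5 FPKM in the MyoCre libraries, and it was lowest in K15SKO 1 and nearest to MyoCre in K15SKO 2 (log2 difference −2.06, SE 0.66, limma adjusted p = 0.273).

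The K15SKO libraries did not form a tight group. Over all tested genes, K15SKO 2 correlated least with the others, at 0.915 with K15SKO 1, 0.880 with K15SKO 3 and 0.870 to 0.880 with the MyoCre libraries. K15SKO 1 correlated at 0.942 with K15SKO 3 and at 0.928 to 0.936 with MyoCre. K15SKO 3 lay closest to MyoCre, at 0.968 to 0.975, and the MyoCre libraries correlated with each other at 0.981 to 0.987. The libraries also differed in tissue content. Summed over 11 liver markers, the K15SKO libraries held 75.5, 5601 and 14.7 FPKM, against 18.0, 14.3 and 7.96 FPKM in the MyoCre libraries. Summed over 17 macrophage markers they held 330.0, 170.4 and 43.4 FPKM, against 57.8, 55.6 and 46.4 FPKM in the MyoCre libraries. For 11 skeletal muscle markers the sums were 30989, 28879 and 47477 FPKM in K15SKO and 38375, 38036 and 44033 FPKM in the MyoCre libraries. Muscle markers were thus abundant in every library, but not equally. In K15SKO 1, 2 and 3, 7, 9 and 0 of the 11 lay below every MyoCre library, and 2, 1 and 10 above. Over all 11607 genes tested, 5011, 5086 and 2936 lay below and 4323, 3873 and 4186 above. The adipocyte markers (6) summed to 53.2, 29.4 and 34.1 FPKM in K15SKO and to 201, 479 and 171 FPKM in the MyoCre libraries. Relative to MyoCre 1, depth read from the steps between low values was 0.752, 1.57 and 0.895 in K15SKO and 1.08 and 1.32 in MyoCre 2 and 3. In bulk tissue, fewer cells of a type and less RNA per cell cannot be told apart.

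The pump couples ATP hydrolysis in a soluble V1 sector to proton flow through a membrane V0 sector, and the low pH that results lets most cathepsins mature and act. Cathepsins fall into cysteine, aspartic and serine proteases. In muscle, lysosomal proteolysis works beside the proteasome, and in macrophages cathepsins digest engulfed material and prepare antigen. Many lysosomal genes carry an E-box near their start that the transcription factor TFEB binds.

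The promoters are shown first, since this E-box is the sequence feature the genes are best known for. Of the 31 members, 24 had windows in the RefSeq promoter table for GRCm38.p6, which run from 250 bases before to 50 after a transcript start. Atp6v0a2, Atp6v1b2, Atp6v1c1, Atp6v1g1, Atp6v1h, Ctsb and Ctsh had none. The core CACGTG, searched on both strands, was found in the windows of 9 of these 24 genes (37.5%) and in those of 8.09% of 27025 genes in all. The longer form TCACGTGA, which contains the core, was found in 5 of the 24 genes (20.8%) and in 1.12% of all genes. CCCACCC, a form of the CACCC box that Krüppel-like factors can bind, was found in 7 of 24 (29.2%) and in 19.4% of all genes. A match describes letters only and is not a measured binding site.

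The core was present in Atp6v0b, Atp6v0d1, Atp6v0e and Atp6v1a of the pump, in Ctsa, Ctsd, Ctsf and Ctsl of the cathepsins, and in Lamp1, which had 4 matches between 61 and 10 bases before its start. The longer form was present in Atp6v0d1, Atp6v0e, Atp6v1a, Ctsa and Ctsd. The 150 bases before the start are given 5′ to 3′, with the E-box in capitals, for 5 genes that carry it there and for Ctss, whose window held none and whose level varied most among the members. In GRCm38.p6 they lie at chr8:13159011-13159160 on the plus strand for Lamp1, chr7:142387828-142387977 on the minus strand for Ctsd and chr4:117887330-117887479 on the minus strand for Atp6v0b. The others lie at chr16:44139260-44139409 on the minus strand for Atp6v1a, chr19:4855015-4855164 on the plus strand for Ctsf and chr3:95526636-95526785 on the plus strand for Ctss.
Lamp1: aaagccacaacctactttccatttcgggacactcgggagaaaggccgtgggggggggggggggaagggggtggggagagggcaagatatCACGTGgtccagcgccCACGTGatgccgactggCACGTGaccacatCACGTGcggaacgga
Ctsd: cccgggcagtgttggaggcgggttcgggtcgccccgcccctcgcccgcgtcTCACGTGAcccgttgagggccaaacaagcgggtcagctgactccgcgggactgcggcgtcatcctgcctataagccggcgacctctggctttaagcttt
Atp6v0b: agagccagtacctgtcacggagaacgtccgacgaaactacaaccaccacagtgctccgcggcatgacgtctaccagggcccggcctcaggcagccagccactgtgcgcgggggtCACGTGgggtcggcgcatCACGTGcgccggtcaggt
Atp6v1a: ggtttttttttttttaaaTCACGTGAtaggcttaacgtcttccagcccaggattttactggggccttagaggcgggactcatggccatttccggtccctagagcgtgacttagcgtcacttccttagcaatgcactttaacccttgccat
Ctsf: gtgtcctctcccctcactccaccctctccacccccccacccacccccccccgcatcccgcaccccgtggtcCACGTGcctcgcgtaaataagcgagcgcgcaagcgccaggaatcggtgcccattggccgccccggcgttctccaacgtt
Ctss: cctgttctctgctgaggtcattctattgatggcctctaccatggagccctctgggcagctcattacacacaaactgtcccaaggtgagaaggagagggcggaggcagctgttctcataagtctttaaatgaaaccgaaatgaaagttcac

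**Figure D1:**
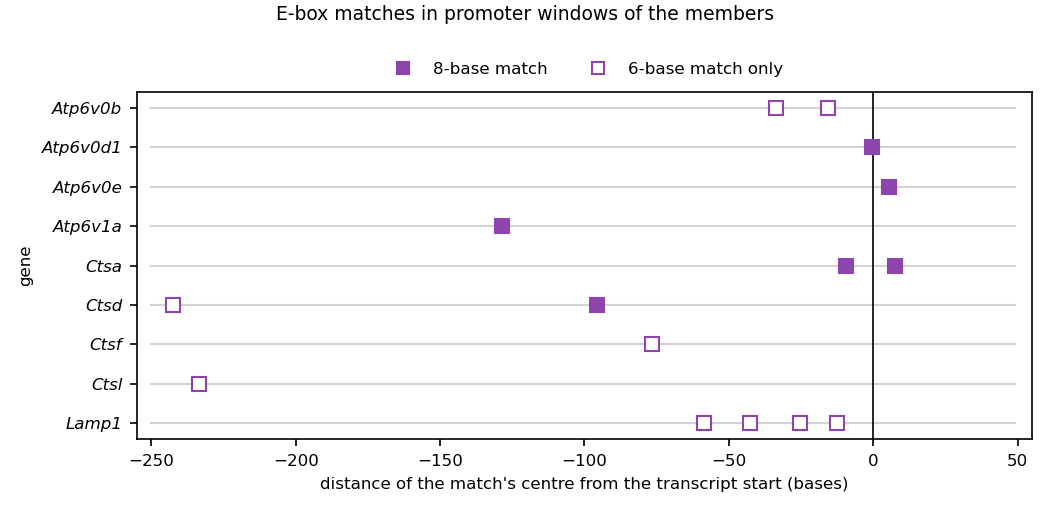
Positions of E-box matches in the promoter windows of the 9 members that held one, in bases from the transcript start (vertical line); filled squares are matches to the 8-base form and open squares to the 6-base core alone. Lamp1 has 4 core matches close to its start, and 5 genes carry the 8-base form.

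The comparison of K15SKO with MyoCre asks whether transcripts of the acid lysosome differ when Klf15 is deleted in muscle. Most proton pump genes lay close to their MyoCre levels. In contrast, 5 cysteine cathepsins stood well above MyoCre in K15SKO 1 and K15SKO 2 and close to it in K15SKO 3. Of the pump genes, Atp6v0e was at 1.74, 1.45 and 0.708 times its MyoCre mean in K15SKO 1, 2 and 3. Atp6v1g2, a low gene, was at 1.53, 1.69 and 0.673 times its own. Ctss, cathepsin S of antigen-presenting cells, averaged 21.01 ± 18.4 FPKM in K15SKO and 2.14 ± 0.386 FPKM in MyoCre (SD, n = 3 each). None of the 31 members passed an adjusted p of 0.05 (limma, Benjamini-Hochberg over the 11607 genes with a mean of at least 1 FPKM, all 31 among them), where 0.0517% of all genes tested did. At an unadjusted p under 0.05, 1 member was higher (Ctsh) and 0 lower, against 8.43% and 8.12% of all genes tested. The groups did not overlap for 3 members that stood higher in K15SKO (Atp6v1d, Atp6v0b and Ctsf) and for 0 that stood lower, against 13.4% and 11.3% of all genes. These shares for the members do not exceed the background. Over the members, limma's adjusted p ran from 0.302 to 0.977.

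**Figure D2:**
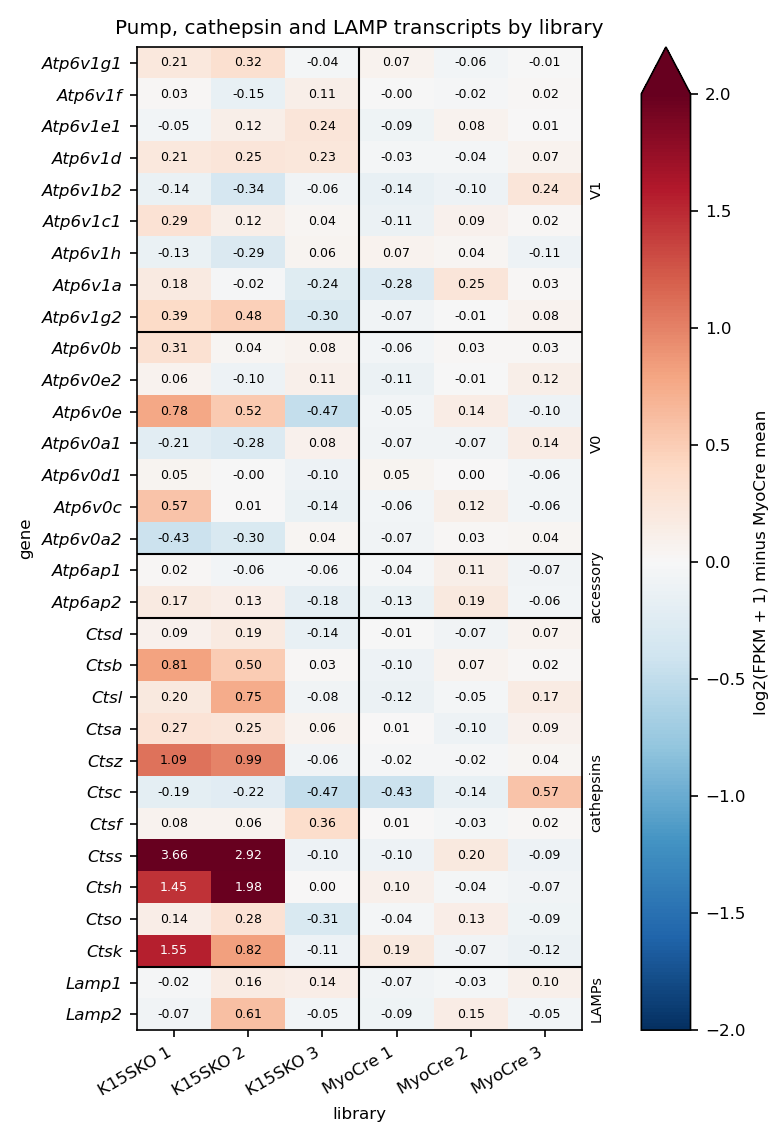
Difference of log2(FPKM + 1) from the MyoCre mean for the 31 members (rows, by sector and class) in the 3 K15SKO and 3 MyoCre libraries (columns); the colour scale saturates at 2 and each cell prints its value. Ctss, Ctsh, Ctsz, Ctsb and Ctsk carry their high values in K15SKO 1 and 2 and lie near 0 in K15SKO 3, while most pump rows stay near 0 in every column.

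The pump was present as a whole. Its 18 genes had a median log2 difference of 0.03, with 10 above and 8 below 0 and a range of −0.23 to 0.28, and the median over all genes tested was −0.02. Summed over the 18 genes, the K15SKO libraries held 791, 748 and 727 FPKM, against 696, 723 and 722 FPKM in the MyoCre libraries. The K15SKO sums were thus all above the MyoCre ones, at 1.11, 1.05 and 1.02 times the MyoCre mean, with K15SKO 3 only just above MyoCre 2. The pump sums were not adjusted for total FPKM, which was largest in K15SKO 3. That total was 401505, 396375 and 466756 in K15SKO and 399372, 397426 and 423214 in the MyoCre libraries. Relative to these totals, the pump sum of K15SKO 3 was the lowest of all libraries, so the order of the sums holds only without adjustment. The median pump gene lay 0.12, 0.0061 and −2.2e-05 from its MyoCre mean of log2(FPKM + 1) in K15SKO 1, 2 and 3.

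In the V1 sector, the catalytic A subunit (Atp6v1a) and the B subunit (Atp6v1b2) form the hexamer that splits ATP. Atp6v1a was at 9.29, 7.93 and 6.69 FPKM in K15SKO and at 6.49, 9.79 and 8.24 FPKM in the MyoCre libraries, and the groups overlapped. Atp6v1b2 was at 28.6, 24.7 and 30.1 FPKM in K15SKO and 28.5, 29.3 and 37.5 FPKM in the MyoCre libraries, also with overlap (log2 difference −0.18, SE 0.15, limma adjusted p = 0.491). Transcripts of the 2 subunits thus differed in level although the pump uses them in equal number.

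Atp6v1d encodes the D subunit, part of the central rotor shaft. It stood at 59.3, 60.9 and 60.04 FPKM in the K15SKO libraries, against 50.0006, 49.9 and 53.6 FPKM in the MyoCre libraries. All K15SKO libraries, including K15SKO 3, lay above all MyoCre libraries, with a log2 difference of 0.23 (SE 0.10, limma adjusted p = 0.303), 1.16, 1.19 and 1.17 times the MyoCre mean. This is the smallest p among the pump genes and it did not pass.

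The peripheral stalks are built from E and G subunits. Atp6v1g1 was at 146, 158 and 123 FPKM in K15SKO and at 133, 121 and 126 FPKM in the MyoCre libraries, so that K15SKO 1 and 2 lay above the MyoCre range and K15SKO 3 within it (log2 difference 0.16, SE 0.13, limma adjusted p = 0.486). Atp6v1e1 was at 67.1, 75.6 and 82.3 FPKM in K15SKO against 65.6, 73.6 and 70.1 FPKM in the MyoCre libraries. Atp6v1g2, a G isoform best known from neurons, was at 2.08, 2.29 and 0.912 FPKM in K15SKO against 1.25, 1.34 and 1.48 FPKM in MyoCre. It made up 1.40%, 1.43% and 0.734% of G subunit FPKM in K15SKO and 0.932%, 1.09% and 1.17% in MyoCre.

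The remaining V1 genes were Atp6v1f, Atp6v1c1 and Atp6v1h. Atp6v1f, of the rotor, averaged 72.6 ± 6.79 FPKM in K15SKO and 72.7 ± 1.17 FPKM in MyoCre (SD, n = 3 each). Atp6v1c1, which links the stalks to the membrane sector, averaged 19.2 ± 1.80 FPKM in K15SKO and 17.2 ± 1.29 FPKM in MyoCre (log2 difference 0.15, SE 0.11, limma adjusted p = 0.472). Atp6v1h, needed for a working pump, averaged 11.3 ± 1.47 FPKM in K15SKO and 12.3 ± 0.847 FPKM in MyoCre (log2 difference −0.12, SE 0.12, limma adjusted p = 0.573).

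By level, the V1 genes ran in K15SKO from Atp6v1g1 through Atp6v1e1, Atp6v1f, Atp6v1d, Atp6v1b2, Atp6v1c1, Atp6v1h and Atp6v1a to Atp6v1g2. In MyoCre the order was the same except that Atp6v1f came before Atp6v1e1. In both groups these 2 genes were the only neighbours whose ranges overlapped.

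In the V0 sector, the ring that carries protons is formed by the c and c'' proteolipids. Atp6v0b, the c'' gene, stood at 96.0, 79.7 and 81.5 FPKM in the K15SKO libraries, against 74.1, 78.9 and 78.8 FPKM in the MyoCre libraries. The groups did not overlap, but K15SKO 2 lay less than 1 FPKM above the highest MyoCre library (log2 difference 0.14, SE 0.12, limma adjusted p = 0.493). Atp6v0c, the c gene, was at 38.8, 26.0 and 23.3 FPKM in K15SKO against 24.6, 28.0 and 24.7 FPKM in the MyoCre libraries, high in K15SKO 1 alone.

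The a subunit holds the half-channels for protons, and its isoforms steer pumps to different membranes. Atp6v0a1 was at 26.3, 25.0 and 32.3 FPKM in K15SKO and at 29.1, 28.9 and 33.8 FPKM in the MyoCre libraries (log2 difference −0.14, SE 0.13, limma adjusted p = 0.569). Atp6v0a2 was at 9.33, 10.3 and 13.3 FPKM in K15SKO against 12.2, 13.2 and 13.4 FPKM in the MyoCre libraries (log2 difference −0.23, SE 0.14, limma adjusted p = 0.398). Both were below every MyoCre library in K15SKO 1 and 2 and within the MyoCre range in K15SKO 3. Their balance was close in both groups: Atp6v0a1 made up 71.8 ± 1.73% of a-subunit FPKM in K15SKO and 70.2 ± 1.49% in MyoCre (SD, n = 3 each, over Atp6v0a1, Atp6v0a2 and Atp6v0a4).

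A further a isoform, Tcirg1, known from osteoclasts and immune cells, has a symbol outside the rule. It was at 6.80, 4.89 and 2.23 FPKM in K15SKO and at 2.13, 1.87 and 1.92 FPKM in the MyoCre libraries, so the groups did not overlap (log2 difference 0.83, SE 0.31, limma adjusted p = 0.288). K15SKO 3 lay closest to MyoCre.

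Atp6v0e and Atp6v0e2 encode isoforms of the small e subunit. Atp6v0e was at 48.0, 39.9 and 19.6 FPKM in the K15SKO libraries, against 26.6, 30.6 and 25.7 FPKM in the MyoCre libraries, above the MyoCre range in K15SKO 1 and 2 and below it in K15SKO 3. Atp6v0e2 was steady at 37.0, 33.0 and 38.1 FPKM in K15SKO and 32.6, 35.1 and 38.5 FPKM in the MyoCre libraries. Atp6v0e made up 56.5%, 54.8% and 33.9% of e-subunit FPKM in K15SKO and 45.0%, 46.5% and 40.0% in MyoCre.

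The d subunit sits on the ring as a socket for the rotor. Atp6v0d1 averaged 28.9 ± 1.56 FPKM in K15SKO and 29.3 ± 1.12 FPKM in MyoCre (SD, n = 3 each). Its osteoclast and macrophage isoform Atp6v0d2 was the gene just outside the limit of 0.5 FPKM, at 0.466, 0.674 and 0 FPKM in the K15SKO libraries, against 0, 0.0155 and 0.0121 FPKM in the MyoCre libraries, and Atp6v1g2, with a mean of 1.56 FPKM, was the member just inside. The other 7 genes outside the limit, Lamp3, Ctsw, Atp6v0a4, Ctse, Atp6v1c2, Lamp5 and Atp6ap1l, were under 0.1 FPKM in every library. A value of 0 in such a table can be a failed estimate.

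The accessory proteins aid assembly of the pump, and Atp6ap2 is also the prorenin receptor. Atp6ap1 was at 73.4, 69.5 and 69.7 FPKM in K15SKO and 70.3, 78.5 and 68.9 FPKM in the MyoCre libraries (log2 difference −0.03, SE 0.11, limma adjusted p = 0.869). Atp6ap2 was at 12.7, 12.3 and 9.71 FPKM in K15SKO against 10.1, 12.9 and 10.7 FPKM in MyoCre. Both overlapped between the groups.

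**Figure D3:**
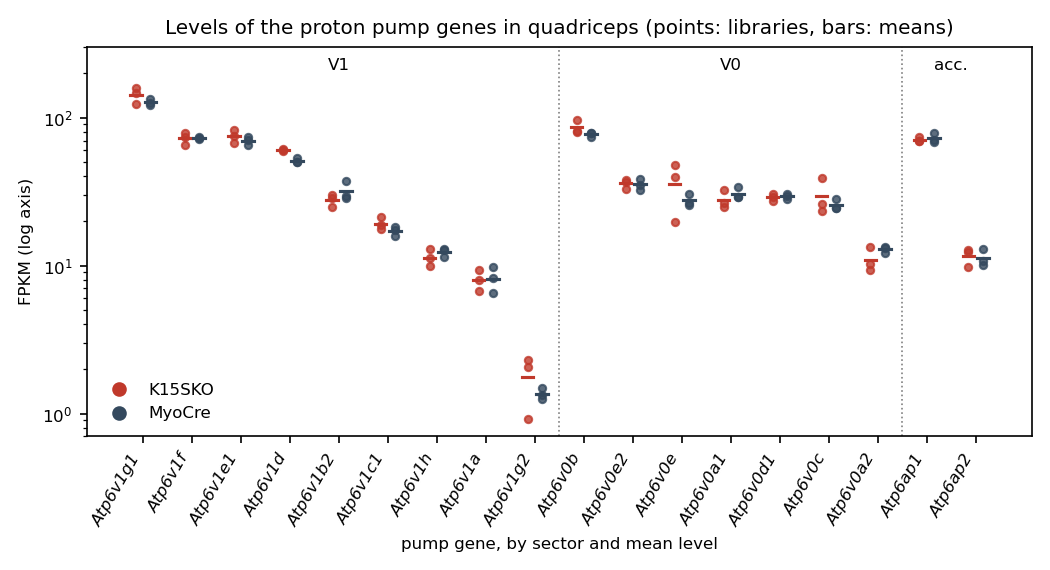
FPKM on a log axis of the 18 proton pump genes, ordered by sector (V1, V0, accessory) and mean level, with 1 point per library for K15SKO (left of each pair) and MyoCre and a bar at each group's mean. The groups sit side by side for most genes, and Atp6v0e spreads widely in K15SKO, from 19.6 to 48.0 FPKM.

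Cathepsin D (Ctsd), a major aspartic protease of lysosomes, was the most abundant member. It stood at 533, 570 and 453 FPKM in the K15SKO libraries, against 498, 478 and 527 FPKM in the MyoCre libraries, with a log2 difference of 0.04 (SE 0.13, limma adjusted p = 0.858). It lay above the MyoCre range in K15SKO 1 and 2 and below it in K15SKO 3, and the sign of the difference turned with quantile normalization (−0.0888). Its share of all cathepsin FPKM was 57.9%, 60.4% and 66.1% in K15SKO and 69.2%, 66.9% and 66.7% in MyoCre.

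The cysteine cathepsins held the widest differences. Ctss stood at 38.5, 22.6 and 1.90 FPKM in the K15SKO libraries, against 1.90, 2.58 and 1.92 FPKM in the MyoCre libraries. K15SKO 1 and 2 were 18.0 and 10.6 times the MyoCre mean, and K15SKO 3 was 0.891 times it, so the groups overlapped through K15SKO 3. The log2 difference was 2.16 (SE 0.91, limma adjusted p = 0.305).

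Ctsh, an aminopeptidase of lysosomes, stood at 10.6, 15.7 and 3.24 FPKM in the K15SKO libraries, against 3.55, 3.14 and 3.05 FPKM in the MyoCre libraries. Here K15SKO 2 was highest, at 4.84 times the MyoCre mean, and K15SKO 3 equalled it (log2 difference 1.14, SE 0.47, limma adjusted p = 0.302). Of the 31 members, 9 were highest in K15SKO 2, with Ctsh, Ctsd, Ctsl and Lamp2 among them, and 9 were highest in K15SKO 1. Over all 11607 genes tested, 1649 were highest in K15SKO 2 and 2823 in K15SKO 1. K15SKO 2 also held the most liver transcripts, 5601 FPKM over the 11 markers. Their part in these levels was not tested.

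Ctsz, a carboxypeptidase of monocytes and macrophages, stood at 47.6, 44.0 and 20.8 FPKM in the K15SKO libraries, against 21.4, 21.4 and 22.4 FPKM in the MyoCre libraries. K15SKO 1 and 2 were at 2.19 and 2.02 times the MyoCre mean, while K15SKO 3 lay just below every MyoCre library (log2 difference 0.67, SE 0.30, limma adjusted p = 0.315). Ctsb, a broadly expressed endo- and exopeptidase, stood at 142, 115 and 82.5 FPKM in the K15SKO libraries, against 75.8, 85.2 and 82.5 FPKM in the MyoCre libraries. It too was highest in K15SKO 1 and next in K15SKO 2, with a smaller span (log2 difference 0.45, SE 0.21, limma adjusted p = 0.319).

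Ctsk, the collagen-degrading cathepsin of osteoclasts and activated fibroblasts, stood at 7.46, 4.10 and 1.69 FPKM in the K15SKO libraries, against 2.29, 1.75 and 1.66 FPKM in the MyoCre libraries. It was highest in K15SKO 1, at 3.92 times the MyoCre mean (log2 difference 0.75, SE 0.40, limma adjusted p = 0.353). Ctsk and Ctss are neighbours on chromosome 3 in GRCm38, at 95499256 to 95509362 and at 95526786 to 95556403.

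Ctsl, an endopeptidase whose transcript is known to be induced in wasting muscle, stood at 67.2, 98.6 and 55.4 FPKM in the K15SKO libraries, against 53.6, 56.5 and 65.8 FPKM in the MyoCre libraries. The values overlapped, and K15SKO 2 alone was far above the rest. Ctso was at 3.76, 4.26 and 2.48 FPKM in K15SKO and 3.19, 3.74 and 3.06 FPKM in the MyoCre libraries, with K15SKO 3 lowest of all. Ctsf was at 12.8, 12.7 and 15.8 FPKM in K15SKO against 12.2, 11.8 and 12.3 FPKM in MyoCre, without overlap and with K15SKO 3 highest (log2 difference 0.17, limma adjusted p = 0.431).

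Ctsc, dipeptidyl peptidase 1, activates serine proteases of immune cells. It was at 23.3, 22.8 and 19.0 FPKM in the K15SKO libraries, against 19.5, 24.1 and 40.3 FPKM in the MyoCre libraries. Its log2 difference of −0.29 was the single negative one among the 11 cathepsins and MyoCre 3 was higher than every other library. The serine carboxypeptidase Ctsa, which also shields other lysosomal enzymes, was at 34.2, 33.5 and 29.4 FPKM in K15SKO and at 28.4, 26.1 and 30.01 FPKM in the MyoCre libraries (log2 difference 0.19, SE 0.11, limma adjusted p = 0.380).

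**Figure D4:**
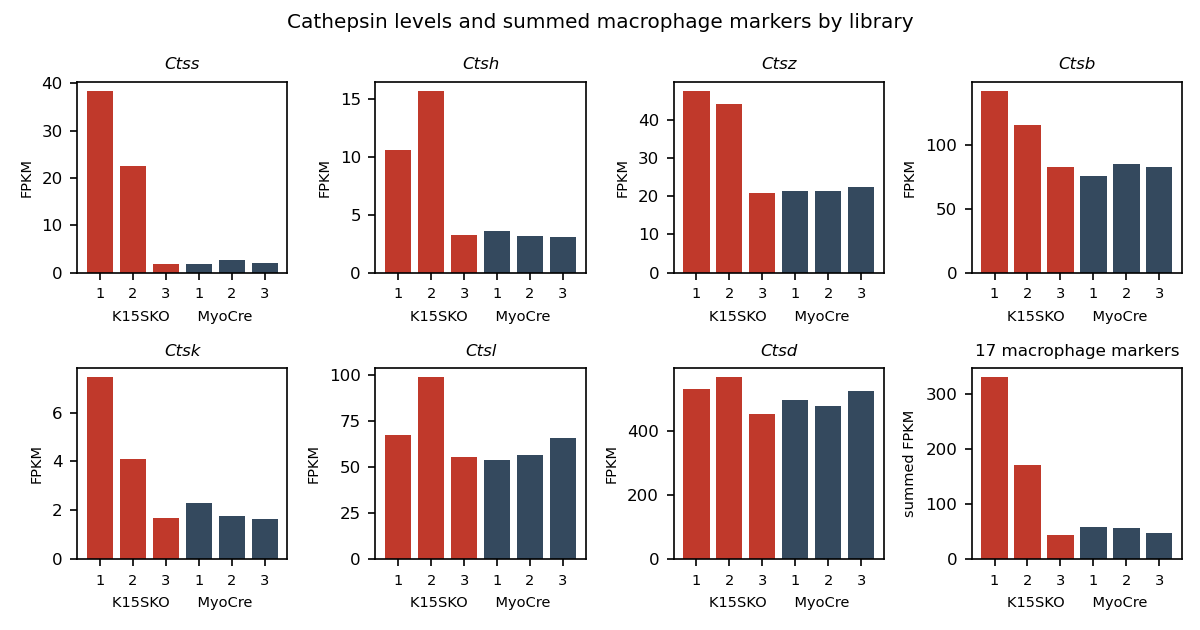
FPKM of 7 cathepsins and the summed FPKM of 17 macrophage markers in each library (bars; K15SKO 1 to 3 in red, MyoCre 1 to 3 in dark blue; axes start at 0). Ctss, Ctsh, Ctsz, Ctsb and Ctsk and the macrophage sum peak in K15SKO 1 or 2 and drop close to MyoCre values in K15SKO 3. Ctsd varies less than these, lying above the MyoCre range in K15SKO 1 and 2 and below it in K15SKO 3.

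Counted over the 11 cathepsins, 10 lay above every MyoCre library in K15SKO 1, 10 in K15SKO 2 and 1 (Ctsf) in K15SKO 3, where 4 lay below every MyoCre library. Over all genes tested, 37.2%, 33.4% and 36.1% lay above every MyoCre library in K15SKO 1, 2 and 3, and 25.3% lay below every MyoCre library in K15SKO 3. For the 18 pump genes the counts above were 8, 7 and 4. The median log2 difference of the cathepsins was 0.29, and it was 0.47 without K15SKO 3. Their median SD of log2(FPKM + 1) was 0.39 in K15SKO and 0.10 in MyoCre. The same SD was 0.16 in K15SKO and 0.10 in MyoCre for the pump, and 0.22 in K15SKO and 0.11 in MyoCre for all genes tested. The cathepsins' summed level was 920, 944 and 686 FPKM in K15SKO and 720, 715 and 790 FPKM in the MyoCre libraries. Without the aspartic Ctsd and the serine Ctsa, the 9 cysteine cathepsins summed to 354, 340 and 203 FPKM in K15SKO and 194, 210 and 233 FPKM in the MyoCre libraries.

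Macrophage markers were high in the same libraries as these cathepsins. Of 17 markers, 10 had a mean of at least 1 FPKM and none of these had an unadjusted p under 0.05; their median log2 difference was 0.91. The lysozyme gene Lyz2 was at 173, 83.6 and 18.6 FPKM in K15SKO and at 22.8, 22.3 and 18.7 FPKM in the MyoCre libraries, and the receptor gene Csf1r at 8.67, 5.18 and 1.56 FPKM in K15SKO against 2.32, 1.77 and 1.52 FPKM in MyoCre. The sums for the list ranged from 43.4 to 330.0 FPKM in K15SKO and from 46.4 to 57.8 FPKM in the MyoCre libraries, and every marker had a value above 0 in every library, apart from a second row of Itgam. Cd68, a macrophage relative of the LAMPs, was at 43.8, 43.6 and 1.24 FPKM in K15SKO against 0.895, 1.45 and 1.11 FPKM in the MyoCre libraries. The part of macrophage transcripts in the cathepsin levels was not tested.

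Fibroblast transcripts differed between libraries too. The collagen gene Col1a1 was at 55.6, 19.6 and 5.89 FPKM in K15SKO and at 6.85, 5.56 and 5.51 FPKM in the MyoCre libraries, highest in K15SKO 1 and next in K15SKO 2, as was Ctsk. Of the 10 fibroblast markers, 5 lay above and 4 below the MyoCre range in K15SKO 1, and 5 above and 5 below it in K15SKO 2. In K15SKO 3, 0 lay above and 9 below, where 25.3% of all genes tested lay below. At an unadjusted p under 0.05 (limma), 0 of these markers were higher and 3 lower (Gsn, Pi16 and Dcn), against 8.43% and 8.12% of all genes tested. The groups did not overlap for 0 markers that stood higher and 4 that stood lower, against 13.4% and 11.3% of all genes. Col1a1 was picked after its values were seen and does not stand for the list. The marker sums ranged from 356 to 493 FPKM in K15SKO and from 447 to 520 FPKM in the MyoCre libraries. The part of fibroblast transcripts in the cathepsin levels was not tested.

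With K15SKO 3 left out, limma called 5 of the 11 cathepsins higher at an adjusted p of 0.05 and 0 lower, where 10.8% of all genes were called higher and 12.8% lower. The 5 were Ctss (log2 difference 3.29, limma adjusted p = 0.00479), Ctsz (1.04, adjusted p = 0.00532), Ctsh (1.72, adjusted p = 0.00815), Ctsb (0.65, adjusted p = 0.0226) and Ctsk (1.18, adjusted p = 0.0274). Of the pump genes, Atp6v0e was then called higher (0.65, limma adjusted p = 0.0245) and Atp6v0a2 lower (−0.37, adjusted p = 0.0407). The labels give no ground to leave this library out, and over their 17 or 18 alternatives limma's adjusted p ran from 0.00479 to 0.581 for Ctss, from 0.00532 to 0.602 for Ctsz, from 0.00815 to 0.581 for Ctsh, from 0.0226 to 0.597 for Ctsb and from 0.0274 to 0.660 for Ctsk.

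Cathepsins with and without the E-box core in their window can be set side by side. The 4 with it, Ctsd, Ctsl, Ctsa and Ctsf, had log2 differences from 0.04 to 0.29. The 5 without it, Ctsz, Ctsc, Ctss, Ctso and Ctsk, ranged from −0.29 to 2.16. Ctsb (0.45) and Ctsh (1.14) had no window and are in neither set. No test was made of this split.

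**Figure D5:**
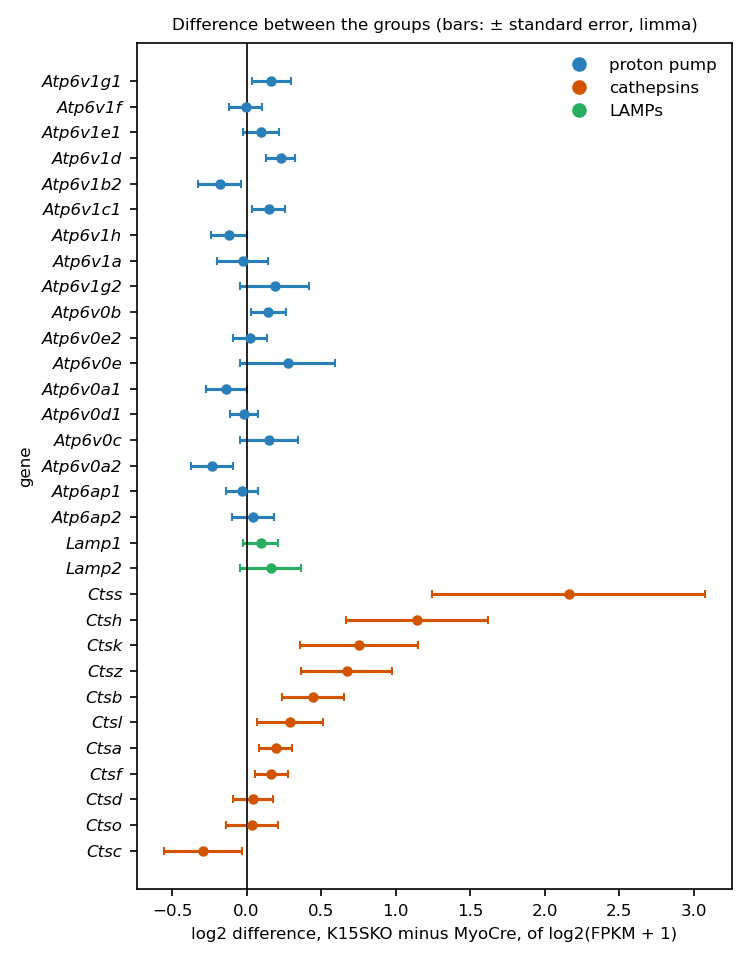
Log2 difference, K15SKO minus MyoCre, of log2(FPKM + 1) with its standard error from limma for each member (rows: pump genes, LAMPs, then cathepsins by size). Pump genes lie between −0.23 and 0.28, and Ctss at 2.16 and Ctsh at 1.14 lie farthest from 0 with the widest bars.

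LAMP glycoproteins line the lysosomal membrane, and LAMP2 also serves in autophagy, where its loss causes a muscle and heart disease. Lamp1 was at 317, 358 and 354 FPKM in the K15SKO libraries, against 306, 313 and 345 FPKM in the MyoCre libraries (log2 difference 0.09, SE 0.12, limma adjusted p = 0.658), and its direction flipped with quantile normalization (−0.0195). Lamp2 was at 32.0, 52.0 and 32.5 FPKM in K15SKO and at 31.6, 37.4 and 32.5 FPKM in the MyoCre libraries (log2 difference 0.16, SE 0.21, limma adjusted p = 0.661). K15SKO 2 was the highest library for Lamp2, and the difference was −0.0641 without it. Lamp1 was the second most abundant member after Ctsd, far above Lamp2 in every library.

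Other lysosomal genes gave 1 call. Npc1, the cholesterol exporter of the lysosomal membrane, fell to 6.24, 8.98 and 7.08 FPKM in the K15SKO libraries, against 35.9, 29.8 and 25.7 FPKM in the MyoCre libraries (log2 difference −1.90, SE 0.17, limma adjusted p = 0.0389). It passed in 7 of 18 alternatives, with adjusted p from 0.00893 to 0.337, and not without MyoCre 1 (0.253), MyoCre 2 (0.337), MyoCre 3 (0.104), K15SKO 1 (0.165) or K15SKO 2 (0.0623). The call was also lost with the replicate number as a block (limma adjusted p = 0.234) and without genes at 0 in a whole group (limma adjusted p = 0.103), an alternative chosen after seeing the data in which limma called 0 genes in all (1930 at an unadjusted p under 0.05). The other losses were without a filter (0.118), with a mean of at least 0.5 FPKM (0.0505), with median-of-ratios rescaling (0.0654) and without the intensity trend (0.0565). Of the 24 tested genes for lysosomal membrane proteins and channels, Npc1 was the 1 that passed. At an unadjusted p under 0.05, 2 were higher and 3 lower, against 8.43% and 8.12% of all genes tested. The list's median log2 difference was −0.09. Laptm4b, a late endosomal membrane protein, averaged 18.7 ± 4.02 FPKM in K15SKO and 31.7 ± 1.08 FPKM in MyoCre (SD, n = 3 each, limma adjusted p = 0.251).

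Among 41 tested lysosomal hydrolases and activators, 0 passed. At an unadjusted p under 0.05, 5 were higher and 2 lower, against 8.43% and 8.12% of all genes tested. The list's median log2 difference was 0.07. Of the 41, 22, 24 and 12 lay above every MyoCre library in K15SKO 1, 2 and 3, and 14, 12 and 22 below. Over all 11607 genes tested, 4323, 3873 and 4186 lay above and 5011, 5086 and 2936 below. Gusb had the list's highest log2 difference (1.47, SE 0.62, limma adjusted p = 0.304). It was at 20.8, 23.4 and 3.53 FPKM in K15SKO and at 3.90, 3.69 and 3.88 FPKM in the MyoCre libraries. Lgmn, the asparaginyl protease legumain that processes cathepsins, was at 45.9, 32.5 and 14.9 FPKM in the K15SKO libraries, against 11.4, 12.6 and 12.1 FPKM in the MyoCre libraries (log2 difference 1.16, SE 0.37, limma adjusted p = 0.273). The groups did not overlap, and K15SKO 3 lay nearest to MyoCre. Manba, beta-mannosidase, averaged 2.47 ± 0.565 FPKM in K15SKO and 1.31 ± 0.301 FPKM in MyoCre, and Ppt1, palmitoyl-protein thioesterase, 8.09 ± 2.18 FPKM in K15SKO and 5.19 ± 0.590 FPKM in MyoCre (SD, n = 3 each).

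Of 22 tested regulators and sorting genes, 0 passed. At an unadjusted p under 0.05, 1 was higher and 2 lower, against 8.43% and 8.12% of all genes tested. The list's median log2 difference was −0.10. Tfeb, the E-box factor named above, was at 31.5, 25.5 and 36.7 FPKM in K15SKO and at 36.9, 34.4 and 38.4 FPKM in the MyoCre libraries (log2 difference −0.23, SE 0.15, limma adjusted p = 0.417). Flcn, folliculin, averaged 22.3 ± 5.07 FPKM in K15SKO and 34.2 ± 3.70 FPKM in the MyoCre libraries, and its partner Fnip1 18.0 ± 10.9 FPKM in K15SKO and 32.4 ± 2.99 FPKM in MyoCre (SD, n = 3 each). Lamtor1, the anchor of the Ragulator complex on lysosomes, stood at 127, 111 and 104 FPKM in K15SKO against 87.0, 79.4 and 97.4 FPKM in the MyoCre libraries, without overlap (limma adjusted p = 0.281).

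Of 5 tested cathepsin inhibitors, 0 passed. At an unadjusted p under 0.05, 1 was higher and 1 lower, against 8.43% and 8.12% of all genes tested. The list's median log2 difference was 0.41. Cst3, cystatin C, a secreted inhibitor of cysteine cathepsins, was at 439, 347 and 449 FPKM in the K15SKO libraries, against 619, 719 and 717 FPKM in the MyoCre libraries, lower in every K15SKO library (log2 difference −0.74, SE 0.15, limma adjusted p = 0.248). Cst6, a cystatin, averaged 7.06 ± 0.975 FPKM in K15SKO and 5.26 ± 0.0281 FPKM in MyoCre, and Serpinb6a, a serine protease inhibitor, 259.7 ± 53.5 FPKM in K15SKO and 193 ± 5.89 FPKM in MyoCre (SD, n = 3 each).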

How the data were processed

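The authors deposited FPKM for 23314 genes, 1 column per library. The tools named in the submitters' processing notes are STAR, Cufflinks and Cuffdiff, with the mm10 build and no version. The unit comes from those tools and the values. FPKM keeps no counts, so absolute depth is unknown and no counting interval is given. Relative depth came from values under 0.1 FPKM. Columns were matched to samples by description, and 0 belonged to no sample.

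Genes with a mean of at least 1 FPKM (11607) were tested across all genes on log2(FPKM + 1) by limma (version 3.58.1, R 4.3.3; lmFit, then eBayes with intensity trend), two-sided, Benjamini-Hochberg, threshold 0.05. A log2 difference understates the change of low genes. Tables used Python 3.11.15, pandas 2.3.3 and numpy 2.4.6, plots matplotlib 3.10.9. Coordinates came from GENCODE M21 on GRCm38 (mm10), where all 31 members matched. The script was tested on simulated data. No label states whether the libraries keep strand, and 8 members (Lamp1, Ctsb, Atp6v1e1, Ctsa, Ctsz, Atp6v0a2, Atp6v1h and Atp6v1g2) share exon positions with an opposite-strand gene of the table, so their values are uncertain.

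Members, lists and tests were chosen with earlier results of these data known. Statistics are printed for the 8 pump genes and 6 cathepsins with the smallest p, the LAMPs and the most abundant gene of each kind. They are also printed for 3 genes of each other lysosomal list. Ctsf, Ctsl, Ctsc, Cd68, Col1a1, Gusb and Atp6v0e were added after their values were seen. The markers of other cell types serve as context. Alternatives were other pseudocounts, filters, scalings, moderation and weights, the replicate number as a block, each library left out and, chosen after seeing the data, no genes at 0 in a whole group.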

Additional observations from a re-analysis of the deposited data

How the results depend on the processing

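Over 18 alternatives, the count of cathepsins past an adjusted p of 0.05 was 0 in all but 2. It was 5 with array weights and ranged from 0 to 5 when each library was left out. The count of proton pump genes ranged from 0 to 2 when each library was left out, with 2 without K15SKO 3, and was 0 under the other alternatives. The LAMP count was 0 throughout. The median log2 difference of the cathepsins was 0.55 with array weights and ranged from 0.22 to 0.47 when each library was left out, highest without K15SKO 3. That of the pump genes ranged from −0.0241 to 0.12 when each library was left out, highest without MyoCre 2. The replicate block gave 0 cathepsins, 0 pump genes and 0 LAMPs past the threshold and 3 genes in all, against 6, and lost Npc1 (limma adjusted p = 0.234). Same-numbered libraries correlated at 0.0024, 0.0851 and 0.0942 in their deviations from the group means. Each K15SKO library correlated best with the MyoCre library of its number. These correlations are small and the labels give no pairing, so they do not decide whether the libraries are paired. Without genes at 0 in a whole group, limma called 0 genes in all (1930 at an unadjusted p under 0.05). Array weights called 2398 genes in all and the fit without K15SKO 3 called 2743. Of 323 recomputed log2 differences of 18 named members, 307 kept their direction and side of the threshold, 11 passed it newly and 5 reversed. The reversals were Lamp1 (−0.0195) and Ctsd (−0.0888) with quantile normalization, and, when each library was left out, Lamp2 (−0.0641 to 0.28), Atp6ap1 (−0.0678 to 0.0243) and Ctsd (−0.0271 to 0.14). The cause was not tested. A mean of at least 5 FPKM leaves no value for Ctsk. With 3 libraries a group, depth unknown and K15SKO 3 close to MyoCre, a difference that missed the threshold is not shown to be absent.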
